A study of Mus musculus with 2 samples.

Results

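The imprinted genes outside the distal chromosome 7 domains were compared between 3 mouse embryonic stem (ES) cell clones, using all array probes that carry the name of one of 37 known imprinted genes. Of the 31896 genes on the array, these 37 were read by 66 of 39429 probes. They lie in 18 loci on 10 chromosomes, and 20 of them had several probes. By textbook assignment, 23 are expressed from the paternal copy and 11 from the maternal copy, while in 3 (Inpp5f, Grb10 and Gnas) the copy depends on the isoform. The genes were chosen by name and locus, not by a measured value.

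Genomic imprinting marks the maternal and paternal copies of a gene differently, mostly by DNA methylation laid down in the germ line, so that a single copy is transcribed. Imprinted genes often sit in clusters under a shared control region, and a long non-coding RNA from the cluster can silence its neighbours. Many are known for growth control of the embryo and for development of the placenta. The protein Zfp57, with its partner Trim28, keeps the methylated copy methylated in ES cells and the early embryo.

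All 3 clones derive from ZHBTc4, an ES cell line in which both endogenous Oct4 alleles are disrupted and Oct4 comes from a transgene that doxycycline shuts off. Clone 26 carried Nr5a2-EGFP, clone 9 carried Oct4-EGFP and clone 2-5 carried EGFP, each from a pCAG-IP vector, and all were treated with doxycycline before harvest. They grew without feeder cells in 15% serum with 1000 IU/ml of leukaemia inhibitory factor. Each group is a single monoclonal line, so a transgene's effect and other differences between clones cannot be told apart. The EGFP array held the Nr5a2-EGFP clone in Cy5 and the EGFP clone in Cy3, and the Oct4 array held the Nr5a2-EGFP clone in Cy5 and the Oct4-EGFP clone in Cy3. With 1 array per pair and no dye swap, no test was possible, and differences are given as measured and counted where they reached 2-fold, that is a log2 ratio of at least 1 in size. Dye bias was not measured. Oct4-EGFP was set against EGFP indirectly, by subtracting the log2 ratio on the Oct4 array from that on the EGFP array. Bulk RNA cannot separate fewer cells with a transcript from less transcript per cell.

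Nr5a2 itself read at 1335 and 1387 units in Nr5a2-EGFP cells, 3055 in Oct4-EGFP cells and 2519 in EGFP cells at its brighter probe. Pou5f1, which encodes Oct4, was dim at its 1 probe, with 179 and 103 units (the second not well above background) in Nr5a2-EGFP cells, 193 in Oct4-EGFP cells and 196 in EGFP cells. The stretch of each transcript inside the transgenes is not stated in the labels, so the probes do not check the labels. Units are array intensities after normalization and include an offset of 50, and the first value of the Nr5a2-EGFP clone is always from the EGFP array and the second from the Oct4 array. Between 78.1% and 80.1% of spots lay well above background in the 4 channels, and the lowest level counted as such was 96.6 to 104.5 units.

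Meg3 and Airn, 2 long non-coding RNAs of imprinted clusters, gave different values at different probes, so sequences of their probes are printed here first, numbered by rising position. All are as deposited, on the plus strand of mm9, and are read 5′ to 3′. No part of them is capitalised. The Meg3 probes lie on chromosome 12 and the Airn probes on chromosome 17.
Meg3 probe 2 (chr12:110799558-110799617): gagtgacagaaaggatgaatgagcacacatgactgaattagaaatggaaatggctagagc
Meg3 probe 3 (chr12:110809678-110809737): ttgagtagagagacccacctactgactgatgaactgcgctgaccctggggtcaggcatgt
Airn probe 1 (chr17:12944784-12944843): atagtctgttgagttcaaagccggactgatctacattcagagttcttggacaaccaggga
Airn probe 2 (chr17:13007006-13007065): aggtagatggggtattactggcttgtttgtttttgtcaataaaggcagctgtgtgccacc
Airn probe 3 (chr17:13008078-13008137): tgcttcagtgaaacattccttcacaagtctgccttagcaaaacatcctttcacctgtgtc
Airn probe 4 (chr17:13008303-13008362): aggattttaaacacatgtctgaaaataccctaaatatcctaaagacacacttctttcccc

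At the probe of highest mean level, most of the imprinted genes stayed within 2-fold in each comparison. There, 1 of 36 genes measured was higher by at least 2-fold in Nr5a2-EGFP than in EGFP cells (Peg10) and 5 were at least 2-fold lower (Meg3, Nnat, Sfmbt2, Zrsr1 and Commd1). Over all 25953 genes measured in that comparison, 3.31% were higher and 5.09% lower. Against the Oct4-EGFP clone, 4 of 34 were higher in Nr5a2-EGFP cells (Peg10, Sfmbt2, Gnas and Usp29) and 0 lower, beside 4.55% higher and 7.14% lower of 26053 genes. In the indirect comparison, 1 of 34 was higher in Oct4-EGFP cells than in EGFP cells (Plagl1) and 7 were lower (Sfmbt2, Meg3, Nnat, Peg10, Zrsr1, Zim1 and Rtl1), beside 6.48% higher and 5.86% lower of 26396. Slc22a3 was not well above background in any channel. Slc22a2 and Calcr, the calcitonin receptor gene, were well above it only in Nr5a2-EGFP cells, at 129 and 118 units on the EGFP array, against 115 and 115 units in EGFP cells.

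The median log2 ratio of the imprinted genes was 0.06 for Nr5a2-EGFP over EGFP, 0.34 for Nr5a2-EGFP over Oct4-EGFP and -0.24 for Oct4-EGFP over EGFP. The medians over all genes measured were 0.03, 0.01 and 0.02 in the same order. All 3 comparisons share channels or arrays. When the EGFP array was centred on its median instead of by loess, all genes shifted to a median of 0.16 and the imprinted genes to 0.19. The split of the imprinted genes became 2 higher and 3 lower in place of 1 and 5. The shares over all genes moved too, to 5.88% higher and 3.46% lower in place of 3.31% and 5.09%. Counted by probe, 14 of 63 were at least 2-fold lower in Nr5a2-EGFP cells than in EGFP cells, against 5.21% of all probes, and 1 was higher, against 3.35%. For Nr5a2-EGFP over Oct4-EGFP, 6 of 59 were higher, against 4.49%, and 3 lower, against 7.45%, 1 of the 3 a dim Asb4 probe whose difference is only known to be at least 1.33-fold. For Oct4-EGFP over EGFP, 17 of 62 were lower, against 5.96%, and 3 higher, against 6.67%, 1 of the 3 the same Asb4 probe, only known to be at least 1.42-fold higher. Probes of 1 gene are not independent, and 3 of the 14 are those of Meg3.

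**Figure D1:**
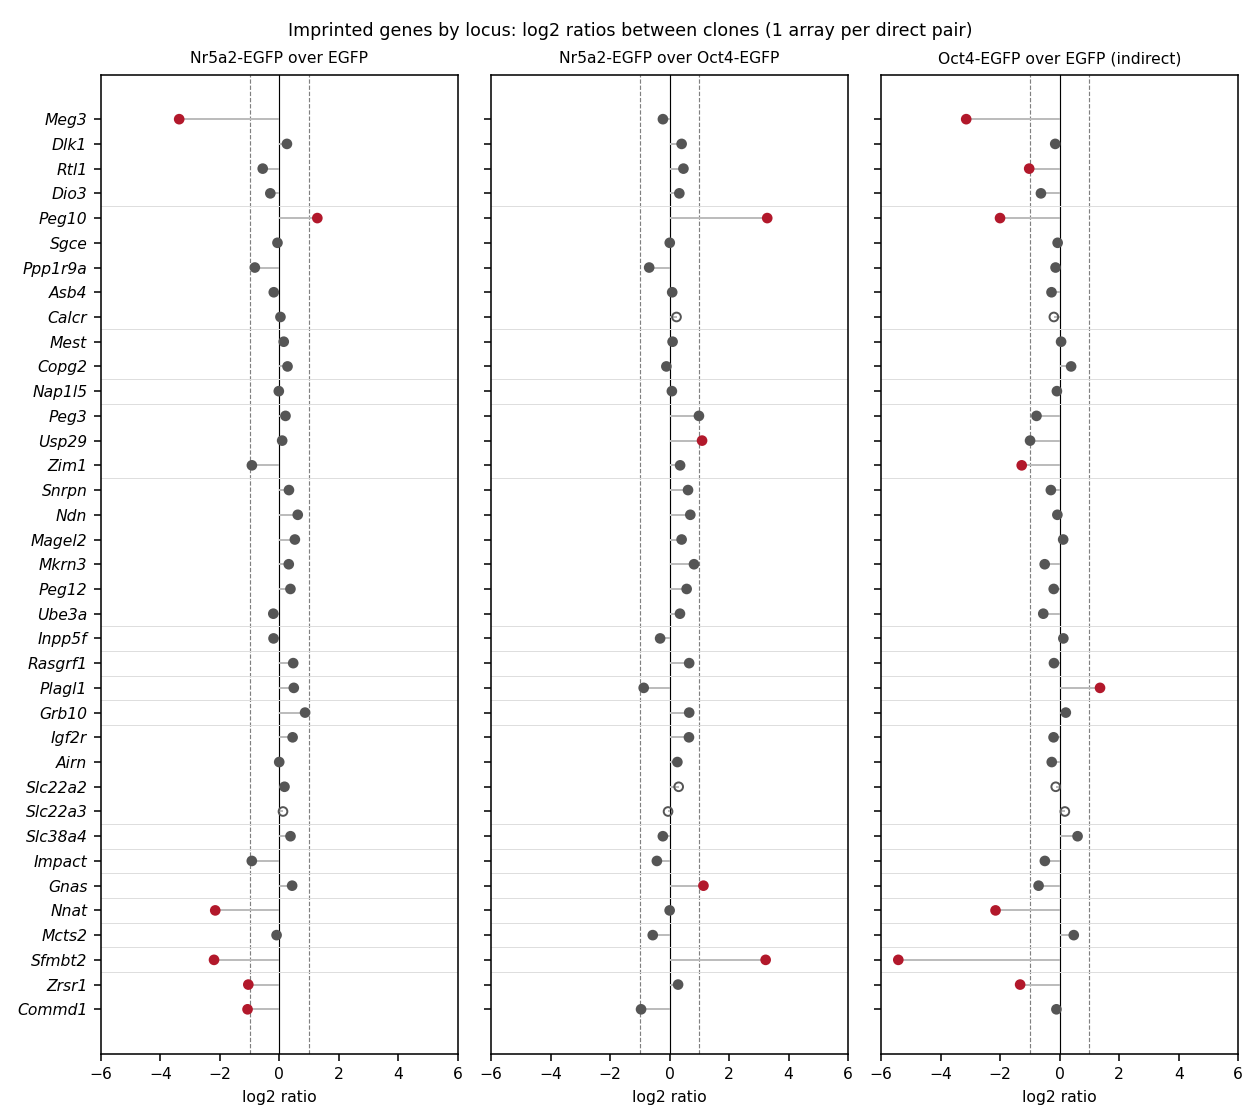
Log2 ratios (horizontal axes) of the 37 imprinted genes, 1 row per gene at its probe of highest mean level, in the 3 comparisons; horizontal lines separate loci, dashed lines mark 2-fold, red points lie past it and open circles were not well above background. Sfmbt2, Meg3, Nnat and Peg10 lie farthest from 0, while the Snrpn-Ube3a and Mest-Copg2 genes stay inside the dashed lines in all 3 panels.

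The Dlk1-Dio3 cluster on chromosome 12 expresses protein-coding genes from the paternal copy and non-coding RNAs, Meg3 first among them, from the maternal copy. Meg3 read at 994 and 167 units in Nr5a2-EGFP cells, 195 in Oct4-EGFP cells and 10280 in EGFP cells at probe 3, its brightest. The EGFP clone thus stood far above the others. Its log2 ratio was -3.37 for Nr5a2-EGFP over EGFP (10.3-fold lower), -0.22 for Nr5a2-EGFP over Oct4-EGFP and -3.15 for Oct4-EGFP over EGFP. The Cy3 levels alone put the Oct4-EGFP clone 52.7-fold below the EGFP clone. The gap between the routes comes from the Nr5a2-EGFP clone, whose readings on the arrays differed 5.95-fold, the lower on the Oct4 array.

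The other Meg3 probes had smaller ratios over EGFP. Probe 2 read at 435 and 179 units in Nr5a2-EGFP cells, 143 in Oct4-EGFP cells and 2817 in EGFP cells, a log2 ratio of -2.70 for Nr5a2-EGFP over EGFP. All 3 probes were highest in EGFP cells, and the size of the ratio differed by probe.

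The protein-coding genes beside Meg3 differed less. Rtl1, a retrotransposon-derived gene needed in the placenta, read at 1020 and 780.2 units in Nr5a2-EGFP cells, 565 in Oct4-EGFP cells and 1506 in EGFP cells, and its probe lies 18.7 kb from that of Meg3. The EGFP clone was again highest, with log2 ratios of -0.56 for Nr5a2-EGFP over EGFP and -1.03 for Oct4-EGFP over EGFP, and the second of these was the closest to the 2-fold rule among genes past it in that comparison. It was -0.89 with median centring. Dlk1, a ligand-like membrane protein that restrains Notch signalling and adipocyte formation, had 0.25 for Nr5a2-EGFP over EGFP at its brighter probe, and Dio3, the enzyme that inactivates thyroid hormone, had -0.31. Neither reached 2-fold in any comparison.

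Sfmbt2, a Polycomb-group gene expressed from the paternal copy in early embryos and extraembryonic tissue and needed for the trophoblast, ordered all 3 clones. Its 1 probe (mm9 chr2:10516716-10516775) read at 3374 and 3514 units in Nr5a2-EGFP cells, 375 in Oct4-EGFP cells and 15480 in EGFP cells. The Nr5a2-EGFP clone lay between the others and its readings were 1.04-fold apart. The log2 ratios were -2.20 for Nr5a2-EGFP over EGFP, 3.23 for Nr5a2-EGFP over Oct4-EGFP and -5.43 for Oct4-EGFP over EGFP, the last a 43.1-fold difference. By Cy3 levels alone it was 41.3-fold, below the 52.7-fold of Meg3. Probes named ENSMUST00000070103 and ENSMUST00000114864, chosen after their values were seen, lie 157 and 156 kb from the Sfmbt2 probe. They had log2 ratios of -2.09 and -2.38 for Nr5a2-EGFP over EGFP, 1.40 and 2.70 for Nr5a2-EGFP over Oct4-EGFP, and -3.49 and -5.08 for Oct4-EGFP over EGFP. The files do not tie them to a gene name.

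Peg10, a retrotransposon-derived gene on chromosome 6 that is needed to form the placenta, was the only imprinted gene whose level in Nr5a2-EGFP cells was at least 2-fold above that of each of the other clones. Its brighter probe read at 36210 and 39810 units in Nr5a2-EGFP cells, 4090 in Oct4-EGFP cells and 14960 in EGFP cells. Both readings of the Nr5a2-EGFP clone were above both other clones, and the Oct4-EGFP clone was lowest. The log2 ratios were 1.27 for Nr5a2-EGFP over EGFP, 3.28 for Nr5a2-EGFP over Oct4-EGFP and -2.01 for Oct4-EGFP over EGFP. At the dimmer probe, with 27810 and 29810, 2917 and 16090 units in the same order of clones, the ratio over EGFP was 0.79, short of 2-fold, and that over Oct4-EGFP was 3.35.

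Sgce, which codes for epsilon-sarcoglycan, is paternally expressed like Peg10 and starts beside it, its probe 70.3 kb away. It read at 4692 and 4517 units in Nr5a2-EGFP cells, 4500.0 in Oct4-EGFP cells and 4909 in EGFP cells, with log2 ratios between -0.07 and 0.01 in the 3 comparisons. These levels were nearly flat, unlike those of Peg10. Of the maternally expressed genes farther along, Ppp1r9a, which codes for the actin-binding neurabin, was bright at 1 probe, with 28130 and 28290 units in Nr5a2-EGFP cells, 45490 in Oct4-EGFP cells and 49870 in EGFP cells. It stayed under 2-fold there (-0.83 for Nr5a2-EGFP over EGFP and -0.69 for Nr5a2-EGFP over Oct4-EGFP). Its dim probe had 124 and 112 units in Nr5a2-EGFP cells, 249.6 in Oct4-EGFP cells and 148 in EGFP cells, a log2 ratio of -1.16 for Nr5a2-EGFP over Oct4-EGFP. Asb4, a SOCS-box ubiquitin ligase subunit, was within 1.21-fold at its brighter probe. At its dim probe it read at 70.8 and 65.2 units in Nr5a2-EGFP cells, 137 in Oct4-EGFP cells and 68.5 in EGFP cells. Only the Oct4-EGFP value was well above background, so Asb4 was at least 1.33-fold lower in Nr5a2-EGFP cells than in Oct4-EGFP cells.

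**Figure D2:**
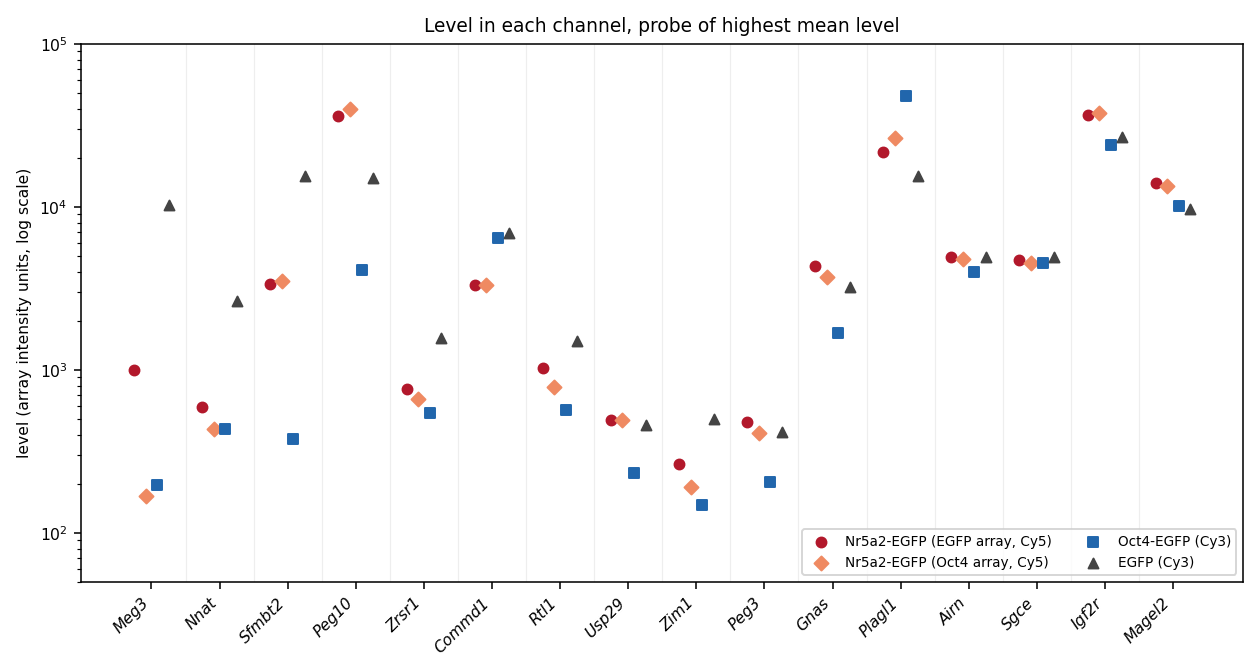
Level in array intensity units (log axis) of 16 imprinted genes at their probe of highest mean level, with a red circle and an orange diamond for the readings of the Nr5a2-EGFP clone, a blue square for Oct4-EGFP and a grey triangle for EGFP. Sfmbt2 falls into 3 separate levels, Nnat has the EGFP clone alone high, and the circle and diamond of Meg3 lie far apart at 994 and 167 units.

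Nnat, a small membrane protein of neurons and endocrine cells expressed from the paternal copy, lies on chromosome 2 inside an intron of Blcap. Its brighter probe read at 589 and 431 units in Nr5a2-EGFP cells, 430.2 in Oct4-EGFP cells and 2626 in EGFP cells. The dimmer probe read at 425 and 381, 414 and 1908 in the same order of clones. The Nr5a2-EGFP and Oct4-EGFP clones could hardly be separated, and the EGFP clone stood above both at each probe. The log2 ratios for Nr5a2-EGFP over EGFP were -2.16 and -2.17, those for Nr5a2-EGFP over Oct4-EGFP 0.00 and -0.12, and those for Oct4-EGFP over EGFP -2.16 and -2.05. Blcap, an imprinted gene whose probe lies 5.05 kb away, had -0.38 for Nr5a2-EGFP over EGFP and -0.13 for Oct4-EGFP over EGFP.

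Zrsr1, a paternally expressed retrogene related to a splicing factor, sits in an intron of Commd1, a maternally biased regulator of copper handling and NF-kB, and their probes are 18.2 kb apart on chromosome 11. Both were just over 2-fold lower in Nr5a2-EGFP cells than in EGFP cells, and they parted in Oct4-EGFP cells. With median centring of the array neither reached 2-fold over EGFP (-0.85 for Zrsr1 and -0.86 for Commd1). Zrsr1 read at 759 and 662 units in Nr5a2-EGFP cells, 543 in Oct4-EGFP cells and 1566 in EGFP cells. Commd1 read at 3298 and 3327, 6468 and 6931 in the same order of clones. Zrsr1 had log2 ratios of -1.04 for Nr5a2-EGFP over EGFP, 0.29 for Nr5a2-EGFP over Oct4-EGFP and -1.33 for Oct4-EGFP over EGFP. Commd1 had -1.07, -0.96 and -0.11 in that order. Over EGFP, Zrsr1 lay nearest to the 2-fold rule among the genes past it, and Impact, at -0.93, nearest outside it.

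The Peg3-Zim1 locus on chromosome 7 holds the paternally expressed Peg3, a zinc finger gene known for growth and maternal care, and Usp29, a ubiquitin protease gene that shares its control region, and the maternally expressed zinc finger gene Zim1. The RefSeq promoter windows of Peg3 and Usp29 on GRCm38.p6, on opposite strands, overlap by 263 bases. Usp29 read at 492 and 493 units in Nr5a2-EGFP cells, 231 in Oct4-EGFP cells and 461 in EGFP cells. The brighter Peg3 probe read at 480.4 and 407, 206 and 417 in the same order of clones. In both genes the Oct4-EGFP clone was lowest and the other clones were close. The log2 ratio of Nr5a2-EGFP over Oct4-EGFP was 1.09 for Usp29 and 0.99 for Peg3, which stand just inside and just outside the 2-fold rule, and the ratio over EGFP was 0.09 and 0.21.

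The dimmer Peg3 probe did not follow the brighter. It read at 183 and 186 units in Nr5a2-EGFP cells, 101 in Oct4-EGFP cells, where it was not well above background, and 788 in EGFP cells. It was 4.31-fold lower in Nr5a2-EGFP cells than in EGFP cells and, by Cy3 levels, at least 7.81-fold lower in Oct4-EGFP cells than in EGFP cells. Zim1 read at 264 and 190.2 units in Nr5a2-EGFP cells, 149 in Oct4-EGFP cells and 502 in EGFP cells at its brighter probe, and at 133 and 108, 97.7 and 302 units in the same order of clones at the other. Both probes were highest in EGFP cells. The log2 ratios for Nr5a2-EGFP over EGFP were -0.92 and -1.19, and those for Oct4-EGFP over EGFP -1.28 and -1.33. By Cy3 levels the Oct4-EGFP clone was 3.37-fold below the EGFP clone at the brighter probe and at least 3.01-fold below it at the other, where it was not well above background.

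**Figure D3:**
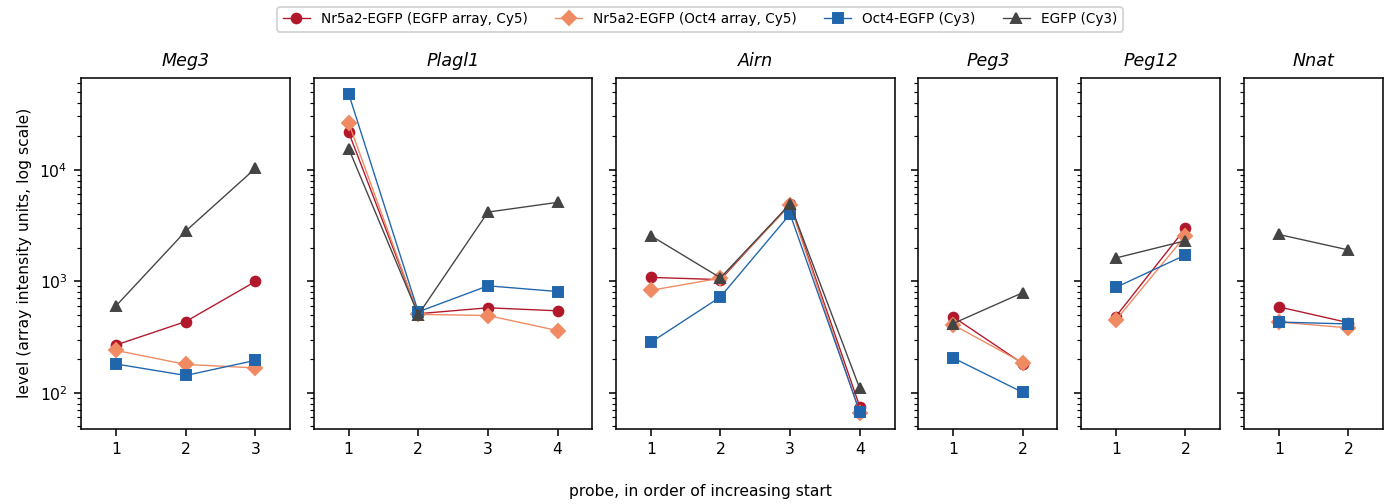
Level in array intensity units (log axis) at each probe, numbered by rising genome position, of 6 imprinted genes with several probes, in Nr5a2-EGFP cells (red circles, EGFP array, and orange diamonds, Oct4 array), Oct4-EGFP clone (blue squares) and EGFP clone (grey triangles). The EGFP clone is high at Plagl1 probes 3 and 4 and lowest at probe 1, high at Airn probe 1 but near the other clones at probes 2 and 3, and highest at both Nnat probes.

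Plagl1, a paternally expressed zinc finger gene on chromosome 10 that controls growth and other imprinted genes, gave opposite directions at its 4 probes, which lie within 12848421 to 12851339 on mm9. Probe 1, the brightest, read at 21670 and 26290 units in Nr5a2-EGFP cells, 48030 in Oct4-EGFP cells and 15490 in EGFP cells. The Oct4-EGFP clone was the highest here and the EGFP clone the lowest. The log2 ratios were 0.48 for Nr5a2-EGFP over EGFP, -0.87 for Nr5a2-EGFP over Oct4-EGFP and 1.35 for Oct4-EGFP over EGFP, where the mean over the 4 probes was -0.64. Probe 3 read at 578 and 492, 909 and 4168 units in the same order of clones. Probe 4 read at 543 and 361, 809 and 5097. The EGFP clone was the highest at both, with log2 ratios for Nr5a2-EGFP over EGFP of -2.85 and -3.23, and for Oct4-EGFP over EGFP of -1.97 and -2.07. Probe 2 was flat, with 501 to 532 units in the 4 channels. Which transcripts these probes read was not assigned, since no annotation of the files' build was used.

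On chromosome 17 the paternally expressed non-coding RNA Airn silences Igf2r, the maternally expressed receptor that clears insulin-like growth factor 2, on the same chromosome copy in cis. Airn probe 1, printed above, read at 1082 and 829 units in Nr5a2-EGFP cells, 283 in Oct4-EGFP cells and 2561 in EGFP cells. All 3 clones differed by at least 2-fold there, with log2 ratios of -1.24 for Nr5a2-EGFP over EGFP, 1.55 for Nr5a2-EGFP over Oct4-EGFP and -2.79 for Oct4-EGFP over EGFP. Probes 2 to 4 lie 62.2 kb or more away, and probes 2 and 3 stayed within 2-fold in every comparison. Probe 4 was well above background only in EGFP cells, at 109 units. It is only known to be at least 1.05-fold lower in Nr5a2-EGFP cells and at least 1.09-fold lower in Oct4-EGFP cells. At probe 3, the brightest, Airn read at 4902 and 4796 units in Nr5a2-EGFP cells, 3999 in Oct4-EGFP cells and 4924 in EGFP cells.

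Igf2r was bright and close in all clones, at 36390 and 37450 units in Nr5a2-EGFP cells, 23830 in Oct4-EGFP cells and 26740 in EGFP cells. Its probe was printed 10 times per array, and the SD of its log2 ratio over those spots was 0.024 on the EGFP array and 0.023 on the Oct4 array, which covers error on the slide only. The log2 ratios were 0.44 for Nr5a2-EGFP over EGFP and 0.65 for Nr5a2-EGFP over Oct4-EGFP. The cation transporter genes Slc22a2 and Slc22a3, placental targets of Airn, lay between 67.6 and 129 units, near the background limit.

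Gnas on chromosome 2 encodes the stimulatory G protein alpha subunit and several isoforms of other parental origin. Its brightest probe, at 174171933 to 174171992, read at 4359 and 3722 units in Nr5a2-EGFP cells, 1690 in Oct4-EGFP cells and 3240 in EGFP cells. The Oct4-EGFP clone was lowest, with log2 ratios of 0.43 for Nr5a2-EGFP over EGFP, 1.14 for Nr5a2-EGFP over Oct4-EGFP and -0.71 for Oct4-EGFP over EGFP. The other 3 probes lay between -0.20 and 0.59 in all comparisons, and the mean over all 4 was 0.46 for Nr5a2-EGFP over Oct4-EGFP, short of 2-fold.

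The Snrpn-Ube3a domain on chromosome 7, whose human counterpart is the Prader-Willi and Angelman region, had no gene past 2-fold at its brightest probe in any comparison. Its 6 genes had log2 ratios between -0.20 and 0.62 for Nr5a2-EGFP over EGFP, between 0.35 and 0.82 for Nr5a2-EGFP over Oct4-EGFP, and between -0.55 and 0.11 for Oct4-EGFP over EGFP. Magel2, an adaptor of ubiquitin ligases, read at 13950 and 13420 units in Nr5a2-EGFP cells, 10130 in Oct4-EGFP cells and 9728 in EGFP cells. Snrpn, a splicing protein, and Ndn, a growth suppressor of neurons, had 0.32 and 0.62 for Nr5a2-EGFP over EGFP. Mkrn3, a makorin zinc finger gene, had 0.31 and -0.76 at its probes. The dimmer probe of Peg12, a gene of the Frat family, stood apart. It read at 483 and 448 units in Nr5a2-EGFP cells, 879.9 in Oct4-EGFP cells and 1615 in EGFP cells, a log2 ratio of -1.74 for Nr5a2-EGFP over EGFP, where the brighter probe gave 0.37.

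Among the remaining genes, Mest, a paternally expressed hydrolase-fold gene, and the maternally expressed coatomer gene Copg2 stayed within 2-fold at their brightest probes, 6.67 kb apart on chromosome 6. A dimmer Mest probe read at 401 and 365 units in Nr5a2-EGFP cells, 219.9 in Oct4-EGFP cells and 489 in EGFP cells, a log2 ratio of -1.02 for Oct4-EGFP over EGFP. The dimmer probe of Nap1l5, of the nucleosome assembly protein family, read at 175 and 185, 292 and 125 units in the same order of clones, with 1.15. The EGFP clone was thus the highest for Mest and the lowest for Nap1l5 at these probes, and their brightest probes were flat, at 0.04 and -0.10. The bright genes Slc38a4, an amino acid transporter, and Mcts2, a retrogene inside H13, had log2 ratios between -0.57 and 0.60 in the 3 comparisons. Grb10, an adaptor that restrains insulin receptor signalling, had 0.86 for Nr5a2-EGFP over EGFP and 0.66 for Nr5a2-EGFP over Oct4-EGFP. Rasgrf1, an exchange factor for Ras, had 0.46 and 0.66, and Inpp5f, a phosphoinositide phosphatase, had -0.20 and -0.32. Impact, a regulator of the kinase Gcn2, read at 11990 and 10090 units in Nr5a2-EGFP cells, 13570 in Oct4-EGFP cells and 22820 in EGFP cells. Of the 34 genes measured in all 3 comparisons, 17 passed 2-fold at some probe in some comparison. The other 17 were within it or, for Asb4, had only a bound below it. Taking any probe in any comparison raises such a count, and the share of all genes under this rule was not computed. The count therefore does not show whether imprinted genes differ from the rest. Calcr, Slc22a2 and Slc22a3 were not measured in all 3.

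At the probe of highest mean level, few maternally expressed genes passed 2-fold, and those that did were lower. In the same comparisons most paternally expressed genes past 2-fold were lower too. The counts are too small to set one parental copy apart from the other. For Nr5a2-EGFP over EGFP, 0 higher and 2 lower of 10 maternally expressed genes stood beside 1 higher and 3 lower of 23 paternally expressed ones. For Nr5a2-EGFP over Oct4-EGFP the counts were 0 and 0 of 8 beside 3 and 0 of 23, and for Oct4-EGFP over EGFP 0 and 2 of 8 beside 1 and 5 of 23. The shares over all genes, higher and lower, were 3.31% and 5.09%, 4.55% and 7.14%, and 6.48% and 5.86% in the same order of comparisons. The arrays read the total transcript and do not show which copy it came from.

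Probes of 1 gene often disagreed. Of the imprinted genes with several measured probes, 6 of 18 had probes a log2 ratio of at least 1 apart for Nr5a2-EGFP over EGFP, against 15.6% of all such genes. The count was 5 of 18 against 18.0% for Nr5a2-EGFP over Oct4-EGFP, and 8 of 19 against 21.8% for Oct4-EGFP over EGFP. Asb4 is in both of these counts, though its dim probe is only known to be at least 1.33-fold lower and at least 1.42-fold higher there. The number of probes per gene was not matched between the imprinted genes and the rest.

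The Nr5a2-EGFP clone was read in Cy5 on both arrays, the only repeated measurement. Its paired readings differed with an SD of 0.30 on the log2 scale over 25561 genes, and 1.72% of genes were at least 2-fold apart. Among 56 probes of imprinted genes well above background in all 4 channels, 3 were at least 2-fold apart, 2 of Meg3 and a dim one of Ube3a, the ubiquitin ligase gene of the domain above. That Ube3a probe read at 148 and 303 units in Nr5a2-EGFP cells, 314 in Oct4-EGFP cells and 146 in EGFP cells.

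The Cy5 readings leaned towards the clone hybridised with them. Across 23829 genes, which share the same arrays and are not independent, the difference of the Cy5 readings and the difference of the Cy3 levels, each Oct4 array minus EGFP array, had r = 0.491. Across the 56 probes of imprinted genes r was 0.685, and it was 0.477 without the 3 Meg3 probes. Of 17 probes at least 2-fold lower in Oct4-EGFP cells than in EGFP cells by Cy3 level, 14 also had the lower Cy5 reading on the Oct4 array. The median log2 difference of the 17 was -0.24. Over all genes, counted at the stricter Cy3 difference of a log2 of at least 2, 87.6% of 258 lower genes had it. Their median was -0.18, so the lean was not particular to the imprinted genes. Sfmbt2 and Peg10 differed little between readings (0.06 and 0.14), whereas Nnat differed by -0.45 at its brighter probe and Meg3 by -2.57 at probe 3. The cause was not tested.

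**Figure D4:**
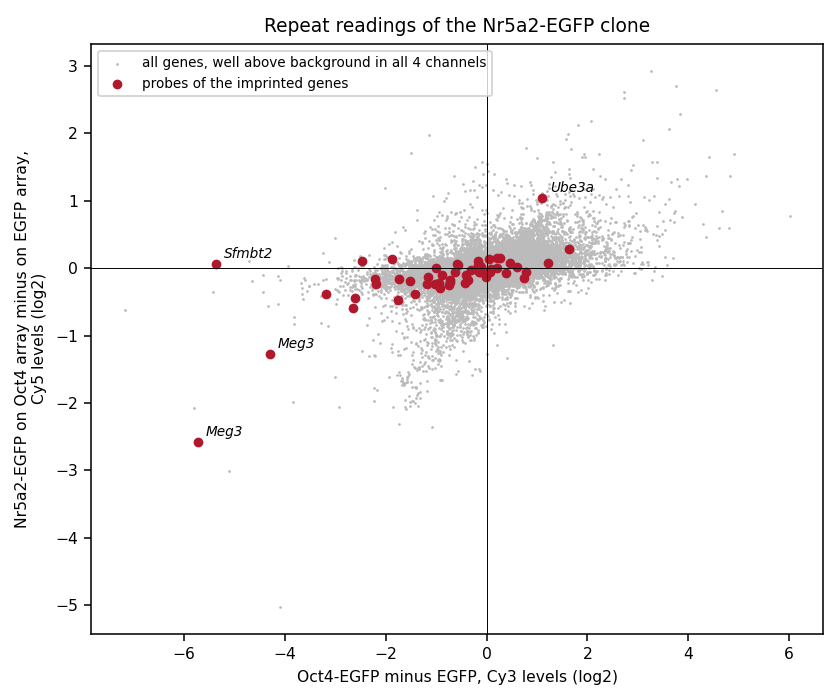
Difference between the Cy5 readings of Nr5a2-EGFP cells (vertical axis, log2, Oct4 array minus EGFP array) against the difference between the Cy3 clones (horizontal axis, log2, Oct4-EGFP minus EGFP); grey points are all genes and red points the 56 probes of imprinted genes well above background in all 4 channels. Sfmbt2 lies far left near a vertical value of 0, while 2 Meg3 probes lie far left and low, at -1.28 and -2.57.

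The promoters of genes lower in Nr5a2-EGFP cells than in EGFP cells were searched for the letters TGCCGC, the sequence that Zfp57 is known to bind when methylated, on both strands (GCGGCA on the reverse). The windows, from RefSeq on GRCm38.p6, run from 250 bases before to 50 after each start. Of 37 genes, 33 matched a window, and no window was found in the table for Peg10, Sgce, Rtl1 and Impact. The letters occurred in 14 of 50 windows of imprinted genes, 28.0%, against 11.6% of all 32851 windows. Windows of 1 gene can overlap, and nearly identical windows of Mest with the letters were counted separately, so windows are not independent. Windows of imprinted genes held a median of 14 CpG against 7 over all windows, and among windows with at least 10 CpG the shares were 37.5% and 22.5%. Of 10 genes with any probe at least 2-fold lower, 5 had the letters (Meg3, Nnat, Plagl1, Zim1 and Commd1), and of the other 23 genes 8 had them. Plagl1 and Zim1 entered only by dimmer probes. At its brightest probe Plagl1 was higher in Nr5a2-EGFP than in EGFP cells (0.484), and Zim1 was short of 2-fold (-0.925). A match describes the letters only and does not show binding. The windows of the 3 genes with the lowest ratios at any probe among those 5 are shown on the plus strand, with the match in capitals.
Meg3 (chr12:109540746-109541045): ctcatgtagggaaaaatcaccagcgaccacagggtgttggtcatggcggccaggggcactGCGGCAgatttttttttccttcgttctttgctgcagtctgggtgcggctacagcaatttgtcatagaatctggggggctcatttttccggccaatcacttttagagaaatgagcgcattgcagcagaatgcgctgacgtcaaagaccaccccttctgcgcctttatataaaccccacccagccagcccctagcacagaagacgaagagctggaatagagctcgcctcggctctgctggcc
Nnat (chr2:157559828-157560127): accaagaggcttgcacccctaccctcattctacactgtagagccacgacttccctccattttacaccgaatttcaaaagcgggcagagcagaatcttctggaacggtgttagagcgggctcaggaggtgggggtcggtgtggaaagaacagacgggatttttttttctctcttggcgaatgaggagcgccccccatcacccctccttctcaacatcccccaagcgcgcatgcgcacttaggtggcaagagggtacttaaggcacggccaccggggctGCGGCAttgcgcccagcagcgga
Plagl1 (chr10:13090582-13090881): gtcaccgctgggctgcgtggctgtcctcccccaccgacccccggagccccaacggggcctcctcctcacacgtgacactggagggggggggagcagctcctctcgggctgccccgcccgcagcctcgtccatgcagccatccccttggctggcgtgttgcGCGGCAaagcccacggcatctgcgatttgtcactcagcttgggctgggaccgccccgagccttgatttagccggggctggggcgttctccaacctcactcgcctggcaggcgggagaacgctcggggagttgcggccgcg

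Zfp57 was among the genes that keep or write DNA methylation, listed beside the imprinted genes. It read at 6373 and 7945 units in Nr5a2-EGFP cells, 33400 in Oct4-EGFP cells and 6432 in EGFP cells. Its log2 ratio was -2.07 for Nr5a2-EGFP over Oct4-EGFP and -0.01 for Nr5a2-EGFP over EGFP. Of 18 genes of this kind, 0 were higher and 1 lower for Nr5a2-EGFP over EGFP (Ctcfl, a paralogue of the insulator protein Ctcf, at -1.76), 2 and 2 for Nr5a2-EGFP over Oct4-EGFP, and 1 and 3 for Oct4-EGFP over EGFP. Dnmt3l, the cofactor of the de novo methyltransferases, had 1.79 for Nr5a2-EGFP over Oct4-EGFP, and Dnmt3a, a de novo methyltransferase, had -1.76 for Oct4-EGFP over EGFP. In all, 5.56%, 22.2% and 22.2% of the list were past 2-fold in the 3 comparisons, against 8.4%, 11.7% and 12.3% of all genes. Trim28, the partner of Zfp57, stayed between -0.47 and 0.56 in the 3 comparisons. Methylation was not measured.

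Of 25 other imprinted genes, 22 were on the array. For Nr5a2-EGFP over EGFP, 0 were higher and 3 lower, with the zinc finger gene Zfp264 of the Peg3 locus at -1.55 and the X-linked Xlr4b at -1.45. For Nr5a2-EGFP over Oct4-EGFP, 3 were higher and 4 lower, with Xlr4b at 1.97 and Xlr3b at 1.90. For Oct4-EGFP over EGFP, 5 were higher and 3 lower, with Xlr4b at -3.42 and Xlr3b at -2.52. In all, 13.6%, 31.8% and 36.4% of the 22 were past 2-fold in the 3 comparisons, against 8.4%, 11.7% and 12.3% of all genes. Xlr4b read at 543 and 482 units in Nr5a2-EGFP cells, 123 in Oct4-EGFP cells and 1485 in EGFP cells, the order of clones that Sfmbt2 showed. The microRNA host transcript Mirg, 178 kb from the Meg3 probe in the same cluster and named after its values were seen, did not share the Meg3 values. It read at 53960 and 54000.0 units in Nr5a2-EGFP cells, 22920 in Oct4-EGFP cells and 40660 in EGFP cells.

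Genes near the imprinted loci were described the same way. There were 286 other genes with a probe within 500 kb. They include genes of the other imprinted list, among them Blcap, H13, Mirg, Pon2, Pon3 and Pdk4, so they are not a background free of imprinted genes. At least 2-fold apart were 11.2% of 249 measured for Nr5a2-EGFP over EGFP, 13.9% of 244 for Nr5a2-EGFP over Oct4-EGFP and 11.0% of 246 for Oct4-EGFP over EGFP. Over all genes the shares were 8.4%, 11.7% and 12.3%, and among the 37 imprinted genes 16.7%, 11.8% and 23.5%, which at 34 to 36 genes rest on 6, 4 and 8 genes. Peg3os, antisense to the Peg3 locus, 1.42 kb from the Peg3 probe and named after its values were seen, had -0.33 for Nr5a2-EGFP over EGFP, 2.06 for Nr5a2-EGFP over Oct4-EGFP and -2.39 for Oct4-EGFP over EGFP.

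**Figure D5:**
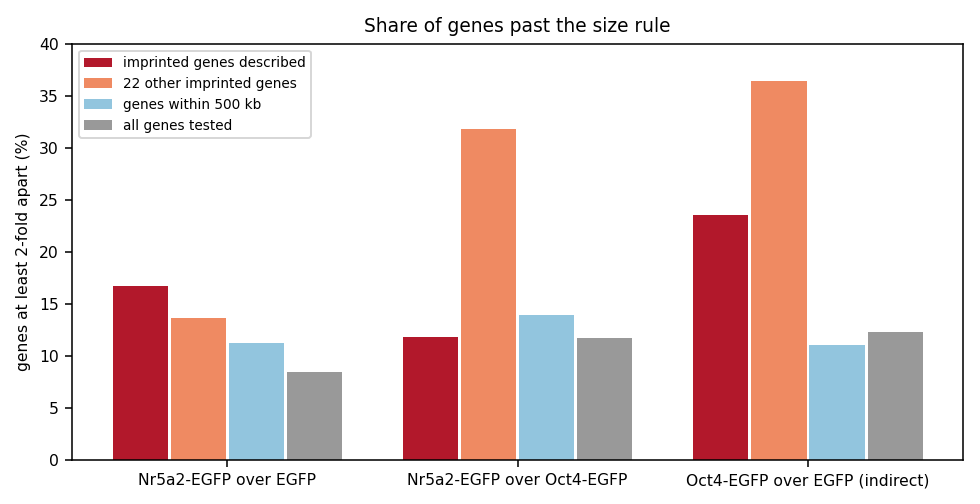
Share of genes at least 2-fold apart in either direction (vertical axis, percent) in each comparison, for the imprinted genes described (red), the 22 other imprinted genes (orange), genes within 500 kb of the imprinted genes described (blue) and all genes measured (grey). The orange and blue groups share genes. For Oct4-EGFP over EGFP the bars stand at 23.5%, 36.4%, 11.0% and 12.3%.

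The clones also differed in cell type markers, mostly in the comparisons that involve Oct4-EGFP. Of 9 trophoblast markers measured, 7 were higher and 0 lower for Nr5a2-EGFP over Oct4-EGFP, with Cdx2 at 4.48 and Gata3 at 3.48, and 0 higher and 7 lower for Oct4-EGFP over EGFP, with Cdx2 at -4.83. For Nr5a2-EGFP over EGFP it was 1 higher and 1 lower. The summed level of the 10 listed markers was 95400 and 93700 units in Nr5a2-EGFP cells, 30500 in Oct4-EGFP cells and 98200 in EGFP cells, and Elf5 was not well above background in any channel. Of 7 ES cell markers, 0 were higher and 5 lower for Nr5a2-EGFP over Oct4-EGFP, with Esrrb at -3.72. For Nr5a2-EGFP over EGFP, 0 were higher and 1 lower, Esrrb at -2.30. The readings of Nr5a2-EGFP cells were far apart for Esrrb, at 1638 and 4480 units, and for Zfp42, at 8321 and 3769. The summed level of the 7 was 70000 and 71300, 177000 and 101000 units in the same order of clones. Nanog made up most of it in Nr5a2-EGFP and EGFP cells, with 52260 and 54580, 72680 and 79570 units in that order. All 3 clones thus read ES cell markers above background, apart from Pou5f1 in the second reading of the Nr5a2-EGFP clone. Of 5 measured markers each of primitive endoderm and of fibroblasts, at most 1 passed 2-fold in any comparison. The part of these markers in the imprinted gene values was not tested.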

How the data were processed

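Total RNA (10 µg per channel) was primed with oligo-dT and labelled directly, per the labels. The authors deposited the scanner intensity values of 2 Agilent arrays (design 026655, probe coordinates on mm9) from Feature Extraction 10.7.3.1 per the file headers, or 9.3.2.1 per the submitters' processing notes, with flags, processed signals and a log10 ratio. A value table of log2 ratios was also deposited by the authors. It followed the software's ratio at r = 0.997 with medians of 0.03 and 0.05, and its centring is not stated in the labels or headers.

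From mean signal and local background, normexp (offset 50), loess within each array and Aquantile for single channels were done with limma 3.58.1 in R 4.3.3. Control spots and outlier-flagged spots (530 and 523) had weight 0 in loess. Steps were tested on simulated data. Spots of a probe were averaged, and a gene took its probe of highest mean level. A gene was measured where a channel of the comparison was well above background. Where 1 channel was not, "at least" marks a bound against the lowest level well above background. No probe of the imprinted genes was saturated. Symbols were updated by RefSeq accession (26055 of 39429 probes, 66.1%). The 37 genes were taken by probe name alone, so by rule this update could add no probe to them.

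Members, lists and rules were chosen with earlier results of these data known. The rule for named genes took all 4 channels of genes with a probe at least 2-fold apart, ranges of the rest, and of other lists the 2 largest ratios per comparison, not all of which are printed. Precision is limited by 1 array per pair of clones, so an effect of the array could not be separated from the pair of clones. Both arrays share a slide and a scan. For each comparison 9 alternatives were tried. Probe positions within exons or untranslated regions were not assigned. The sequence of 1 Meg3 probe is not reported here.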

Additional observations from a re-analysis of the deposited data

How the results depend on the processing

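With 1 array per pair, no replicate could be left out. No paired analysis was possible because each pair of clones has 1 array and no result comes from a test. Counts of genes at least 2-fold apart, higher then lower, were 1 and 5 for Nr5a2-EGFP over EGFP, 4 and 0 for Nr5a2-EGFP over Oct4-EGFP and 1 and 7 for Oct4-EGFP over EGFP. For Nr5a2-EGFP over EGFP, the higher count was 2 with the authors' value table (all genes 6.84%), the software ratio (6.82%) or median centring (5.88%), and 3 with a 1.5-fold rule (12.4%). The lower count was 3 with median centring (3.46%), which lost Zrsr1 and Commd1, and 8 with a 1.5-fold rule (14.3%). It was 7 with the mean over probes (4.69%), the other reading of the Nr5a2-EGFP clone (6.52%) or the software ratio (8.22%). With the authors' value table (8.18%) or an offset of 16 (6.21%) it was 6. For Nr5a2-EGFP over Oct4-EGFP, the higher count was 7 with the other reading of the Nr5a2-EGFP clone (6.28%) and 11 with a 1.5-fold rule (12.7%). It was 6 with the authors' value table (7.86%) or the software ratio (7.53%). With median centring (5.72%) or an offset of 16 (5.4%) it was 5, and with the mean over probes (4.09%) it was 3. The lower count was 1 with the other reading (8.62%) or the software ratio (10.0%) and 3 with a 1.5-fold rule (16.1%). For Oct4-EGFP over EGFP, the higher count was 0 with the mean over probes (6.12%) and 2 with a 1.5-fold rule (15.9%). The lower count was 11 with a 1.5-fold rule (14.4%). It was 9 with the authors' value table (9.59%), the software ratio (9.37%) or the mean over probes (5.29%). With Cy3 levels alone (7.79%) or an offset of 16 (6.94%) it was 8, and with median centring (4.85%) it was 6. Settings not named for a count left it unchanged. Plagl1 reversed for Oct4-EGFP over EGFP, to -0.64 with the mean over its probes, which point both ways, against 1.35. Of 144 values of called genes under the alternatives, 139 stayed at least 2-fold (the others were single values of Zrsr1, Commd1, Rtl1, Gnas and Plagl1), 17 moved by more than the SD of the repeat readings and 1 reversed. The largest moves were those of Meg3, -5.94 for Nr5a2-EGFP over EGFP with the other reading and -5.72 for Oct4-EGFP over EGFP by Cy3 levels. Except where a setting's own construction shows it, the cause was not tested.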

Other observations

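The transcript 1110006E14Rik of the Dlk1-Dio3 region, named after its values were seen, had log2 ratios of -1.93 for Nr5a2-EGFP over EGFP, -0.08 for Nr5a2-EGFP over Oct4-EGFP and -1.85 for Oct4-EGFP over EGFP. These have the signs of the values at Meg3 probe 3. Meg3 probes 1 and 2 had 0.405 and 0.329 for Nr5a2-EGFP over Oct4-EGFP, the opposite sign in that comparison. In the Peg10-Calcr region, 3 of 14 neighbouring genes measured were at least 2-fold higher in Oct4-EGFP than in EGFP cells and 0 lower. Over all genes 6.48% were higher, and the median log2 ratio of the 14 was 0.26. The 3, named after their values were seen, were the paraoxonase genes Pon2 and Pon3 and the pyruvate dehydrogenase kinase gene Pdk4. They had 1.32, 1.33 and 1.06, where Peg10 was lower at -2.01.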
